A study of Mus musculus with 10 samples.

Results

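Type I interferons switch on a broad set of genes in almost every cell, and the genes described here are 10 of the classical antiviral effectors among them: Mx1, Mx2, Isg15, Usp18, Rsad2, Bst2, Rtp4, Ifi44, Ifi27l2a and Cmpk2. They are the rows with these names among the 54532 genes of the deposited table, and 10 of 10 were found. The members were chosen from measured values, with the IPF and sham levels of these same lungs known, so their differences between the groups are a description. Whether a member passed the limits of the fit over all genes is given only as part of that description, with no p-value and as no support for a difference. The values are FPKM, fragments scaled by gene length and library size, so that levels of different genes can be set beside each other.

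The lungs came from wild-type C57BL/6J mice. In the IPF group (increased pulmonary flow, 5 lungs), a needle was passed at P7 from the abdominal aorta into the inferior vena cava, leaving an aortocaval fistula that sends extra blood through the lung. The sham group (5 lungs) had the same anaesthesia and laparotomy at the same age without the puncture. All lungs were taken at P30, and mRNA of the whole organ was sequenced, so fewer cells of a type and less RNA per cell cannot be told apart.

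Type I interferons bind the receptor IFNAR1/IFNAR2, whose kinases JAK1 and TYK2 lead to the complex ISGF3, which holds STAT2 and IRF9 and binds interferon-stimulated response elements (ISRE) near the start of target genes. Type II interferon acts mainly at a different element (GAS), and many target genes answer both. In the lung the response is best known from respiratory virus infection, where epithelial cells, macrophages and endothelium take part.

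The start regions are shown first because ISGF3 acts there. RefSeq windows (GRCm38.p6, from 250 bases before to 50 after the start) were matched for 5 of 10 members: Isg15, Rsad2, Bst2, Ifi44 and Cmpk2. Mx1, Mx2, Usp18, Rtp4 and Ifi27l2a were not matched. The core of the ISRE (GAAA, any 2 bases, then GAAA) was searched on both strands. It was present in 3 of the 5 windows and in 3.44% of 32851 windows of the same length. The stretches that hold the matches are printed 5′ to 3′ on the strand of the gene, with the matched bases in capitals. Isg15 lies at chr4:156200855-156200916 (3 overlapping matches, minus strand), Rsad2 at chr12:26456543-26456592 (1 match, read on the opposite strand, minus strand gene) and Bst2 at chr8:71537567-71537622 (2 overlapping matches, minus strand).
Isg15: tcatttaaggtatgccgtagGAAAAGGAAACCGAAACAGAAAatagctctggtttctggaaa
Rsad2: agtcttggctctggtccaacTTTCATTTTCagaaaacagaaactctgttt
Bst2: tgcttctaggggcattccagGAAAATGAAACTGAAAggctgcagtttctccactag
The Isg15 matches begin 78, 72 and 66 bases before the start, that of Rsad2 120 bases before it, and those of Bst2 130 and 124 bases before it. The GAS core TTCNNNGAA matched once, in the Bst2 window, where it overlaps an ISRE match, against 8.30% of all windows. The windows of Ifi44 and Cmpk2 held neither string. The ISRE core was also found for 23 of 47 matched genes of a list of 60 other type I interferon-induced genes, for 12 of 14 matched genes of a list led by type II interferon, and for 1 of 7 interferon regulatory factors, against 3.99% of all genes. The GAS core was found for 8, 6 and 3 genes of these lists, against 9.55% of all genes. These are letter matches, and no binding was measured.

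Some differences between the libraries stand beside every result. Depth was 15483046 to 19026843 reads on genes, and lung markers such as Sftpc, a surfactant protein, were abundant in all 10 libraries. Sham replicate 1 stood apart with 25486 genes above 0, against 22475 to 23575 in the others, and with 9437 FPKM of Sftpc against at least 13689. Xist, read from the inactive X chromosome of females, was 26.8 to 43.2 FPKM in every IPF lung and 0.0301 to 0.0767 FPKM in every sham lung. The Y-linked Ddx3y, Eif2s3y, Kdm5d and Uty had no read in any IPF lung, and Ddx3y was 14.3 to 21.4 FPKM in sham lungs. The labels give no sex, and the methods describe pups of either sex, shared out evenly between the groups where feasible. For these libraries operation and sex cannot be told apart, in the members as elsewhere. Of 15 circadian clock genes, 3 were higher and 11 lower in IPF lungs at the adjusted p, their sum being 94.9 to 171.6 FPKM in IPF (highest in replicate 5) and 305.9 to 363.2 FPKM in sham lungs, and the part of this in the members' values was not tested.

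All 10 members had a higher mean in IPF than in sham lungs. The fitted log2 fold changes, on the log2(FPKM + 0.1) scale, ran from 0.42 for Usp18 to 1.83 for Ifi27l2a, with a median of 0.87 beside 0.0016 over the 20448 genes tested. At an adjusted p under 0.05 (limma, Benjamini-Hochberg) and a log2 fold change above 1, 4 members passed as higher (Ifi27l2a, Isg15, Rtp4 and Mx1), where 0.680% of all tested genes did. At the adjusted p alone, 7 passed, the others being Ifi44, Cmpk2 and Bst2, where 3.71% of all genes did. The 2 groups did not overlap for 8 members, with every IPF lung above every sham lung, as for 4.52% of all genes. Because the members were chosen on this contrast, nothing is read from these counts. The exceptions were Usp18 and Mx2, whose groups overlapped, and Rsad2, whose groups were apart but which did not pass the adjusted p.

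**Figure D1:**
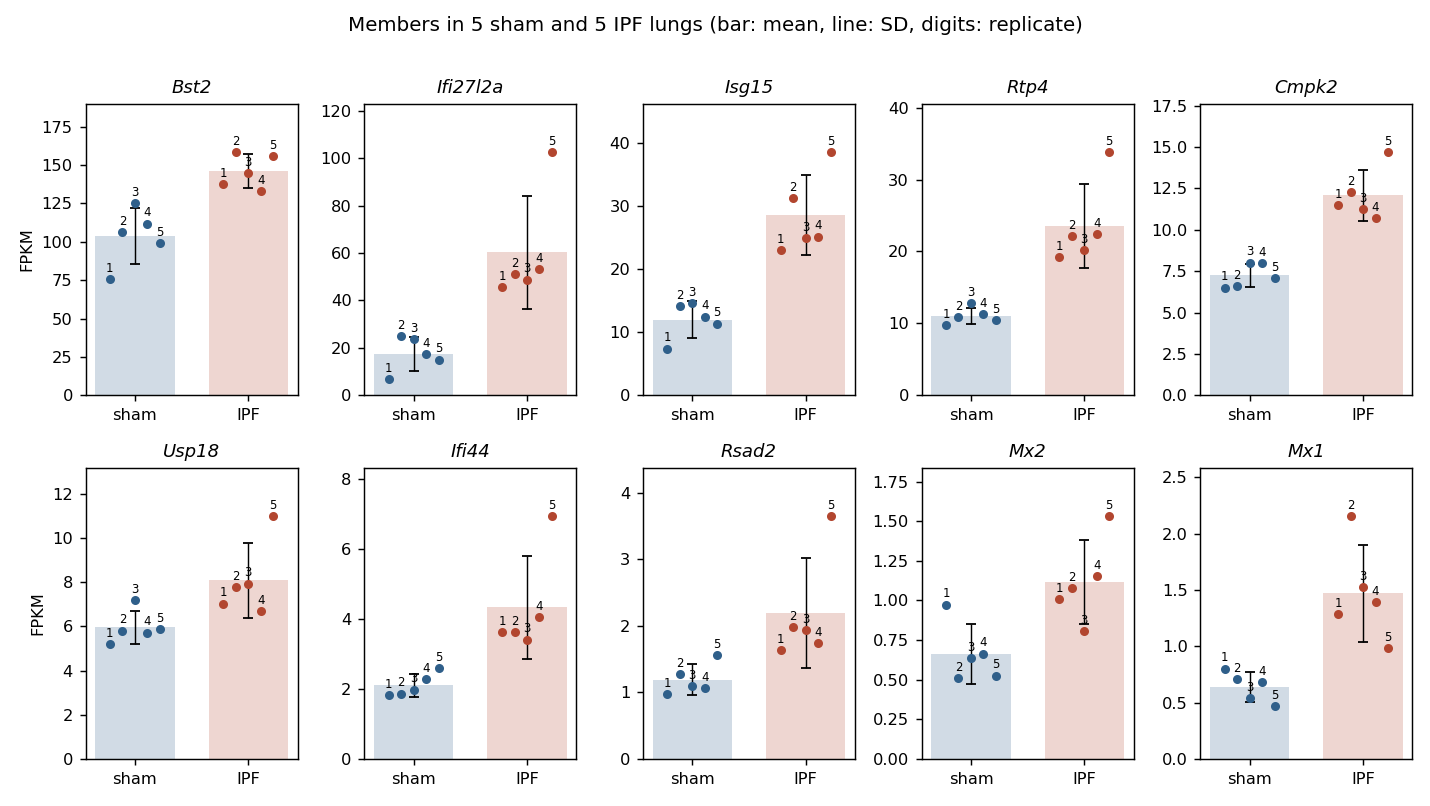
FPKM of each member in 5 sham and 5 IPF lungs, ordered by sham mean, with a linear axis from 0 in each panel; bars are means, lines are SD and digits are replicate numbers. IPF replicate 5 is the top IPF point in 8 panels, reaching 102.4 FPKM for Ifi27l2a, and the lowest for Mx1, at 0.986 FPKM.

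Isg15 encodes a ubiquitin-like protein that is attached to newly made proteins and also secreted (ENSMUSG00000035692, chr4:156199424-156200818, minus strand). Its level was 23.0, 31.3, 24.8, 25.1 and 38.4 FPKM in IPF replicates 1 to 5, and 7.38, 14.1, 14.6, 12.5 and 11.4 FPKM in sham replicates 1 to 5. The lowest IPF lung stood 8.42 FPKM above the highest sham lung. The means were 28.5 ± 6.35 FPKM in IPF and 12.0 ± 2.87 FPKM in sham lungs (SD, n = 5 in either group), and the log2 fold change was 1.26 (SE 0.19).

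Usp18 encodes the protease that removes ISG15 from proteins and damps signalling at IFNAR2 (ENSMUSG00000030107, chr6:121245906-121270917, plus strand). It measured 7.03, 7.78, 7.94, 6.69 and 11.0 FPKM in IPF and 5.20, 5.82, 7.21, 5.72 and 5.88 FPKM in sham lungs. IPF replicates 1 and 4 lay below sham replicate 3, so the groups overlapped, and 3 IPF lungs were above all sham lungs. Its log2 fold change of 0.42 (SE 0.13) was the smallest of the 10. An antisense lincRNA, Gm44148, overlaps the gene and reached at most 1.43 FPKM. Whether reads were counted by strand is not given in the sources used here, so reads of the pair cannot be told apart.

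The other enzymes of the ISG15 pathway were set beside this pair. Herc6, the mouse ISG15 ligase, rose from 1.33 ± 0.198 to 2.07 ± 0.185 FPKM (log2 fold change 0.60, limma adjusted p = 0.0140). Trim25, a ligase for RIG-I and other proteins that is itself induced by interferon, rose from 21.1 ± 1.56 to 26.9 ± 0.848 FPKM (0.35, limma adjusted p = 0.00596). The activating enzyme Uba7 (0.17) and the conjugating enzyme Ube2l6 (0.26) did not pass, with limma adjusted p = 0.231 and 0.518. Of these 4 genes, 2 thus passed the adjusted p as higher, where 3.71% of all genes did, and 0 as lower.

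Ifi27l2a, a small hydrophobic protein induced by interferon, had the largest difference of the members (ENSMUSG00000079017, chr12:103442167-103443680, minus strand). It measured 45.7, 51.2, 48.8, 53.2 and 102.4 FPKM in IPF lungs. In sham lungs it measured 6.94, 24.8, 23.7, 17.4 and 15.0 FPKM. Replicate 5 was thus 2.06 times the mean of the other 4 IPF lungs, and sham replicate 1 was 0.343 times the mean of the other 4 sham lungs. The log2 fold change was 1.83 (SE 0.33) over the 10 lungs and 1.32 without those 2.

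Rtp4, a chaperone for membrane receptors that is induced by interferon, is at chr16:23520291-23614222 on the plus strand (ENSMUSG00000033355). Its IPF values were 19.2, 22.2, 20.2, 22.5 and 33.8 FPKM, and its sham values 9.76, 10.9, 12.8, 11.3 and 10.5 FPKM. Replicate 5 was 1.61 times the mean of the other 4 IPF lungs, and all 5 were above every sham lung. The log2 fold change was 1.06 (SE 0.14), or 0.92 without replicate 5. Masp1 overlaps 525 bases of the gene on the other strand and reached at most 0.527 FPKM, and Gm45338 shares 39791 bases of its span on the same strand, at no more than 0.0377 FPKM.

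Ifi44, an interferon-induced cytoplasmic protein, is at chr3:151730922-151749960 on the minus strand (ENSMUSG00000028037). It measured 3.62, 3.63, 3.41, 4.06 and 6.94 FPKM in IPF against 1.82, 1.87, 1.98, 2.27 and 2.59 FPKM in sham lungs. All IPF lungs were above all sham lungs, by 0.820 FPKM at the closest, and replicate 5 was 1.89 times the mean of the other 4. The log2 fold change was 0.97 (SE 0.18), just under the limit of 1.

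Rsad2 and Cmpk2 are neighbours on chromosome 12 that point away from each other across 12751 bases with no other gene between. Rsad2 encodes viperin, which makes a chain-terminating nucleotide (ENSMUSG00000020641, chr12:26442746-26456452, minus strand), and Cmpk2 a mitochondrial nucleotide kinase that supplies it (ENSMUSG00000020638, chr12:26469204-26479837, plus strand). Rsad2 measured 1.64, 1.98, 1.94, 1.75 and 3.65 FPKM in IPF and 0.980, 1.27, 1.09, 1.07 and 1.56 FPKM in sham lungs. Cmpk2 measured 11.5, 12.3, 11.2, 10.7 and 14.7 FPKM in IPF and 6.51, 6.62, 8.02, 7.98 and 7.09 FPKM in sham lungs. For both, every IPF lung was above every sham lung, by only 0.0818 FPKM for Rsad2 and by 2.71 FPKM for Cmpk2. The log2 fold changes were 0.78 (SE 0.21) and 0.73 (SE 0.096). Rsad2 was under the adjusted p limit in 5 of 20 alternative settings, among them leaving out IPF replicate 5 or sham replicate 5. The ratio of Rsad2 to Cmpk2 was 0.249 in IPF replicate 5, against 0.143 to 0.173 in the other 4 IPF lungs and 0.134 to 0.220 in the sham lungs.

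Bst2 encodes tetherin, which holds budding virus at the cell surface (ENSMUSG00000046718, chr8:71534255-71537456, minus strand). It was the most abundant member, at 137.5, 158.1, 144.8, 132.8 and 155.8 FPKM in IPF and 75.8, 106.1, 125.2, 111.8 and 99.3 FPKM in sham lungs. The groups were 7.65 FPKM apart at the closest, and replicate 2, not 5, was the highest IPF lung. Its spread among IPF lungs was the smallest of the members, with a coefficient of variation of 7.58%. Without replicate 5 this was 7.69%, above Cmpk2 (5.65%), Ifi27l2a (6.52%, from 39.4%), Rtp4 (7.44%) and Ifi44 (7.47%). The log2 fold change was 0.51 (SE 0.12). It was under the adjusted p limit with all 10 lungs, but not in 7 of 20 alternative settings, among them leaving out IPF replicate 1, 2 or 3 or sham replicate 2 or 5.

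Mx1 and Mx2 encode dynamin-like GTPases against influenza and other viruses, and in C57BL/6 mice Mx1 carries an inactivating deletion. Mx1 (ENSMUSG00000000386, chr16:97447035-97462907, minus strand) measured 1.29, 2.16, 1.52, 1.39 and 0.986 FPKM in IPF and 0.801, 0.707, 0.543, 0.682 and 0.468 FPKM in sham lungs. Mx2, which the deposited annotation calls a polymorphic pseudogene (ENSMUSG00000023341, chr16:97535308-97560900, plus strand), measured 1.01, 1.08, 0.805, 1.15 and 1.53 FPKM in IPF and 0.974, 0.509, 0.638, 0.665 and 0.526 FPKM in sham lungs. For Mx1, unlike the other members, replicate 5 was the lowest IPF lung, and replicate 2 was the highest, with the groups 0.184 FPKM apart. For Mx2, IPF replicate 3 lay below sham replicate 1, so the groups overlapped. The log2 fold changes were 1.06 (SE 0.20) for Mx1 and 0.68 (SE 0.20) for Mx2. That of Mx1 fell under 1 without IPF replicate 2 (0.92) or sham replicate 5 (0.97), and to 0.58 with a pseudocount of 1, which shrinks low genes by construction. Mx2 came under the adjusted p limit without sham replicate 1 (0.81).

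These levels rest on few reads. Mx1 had 66 reads in IPF replicate 5 and 136 in replicate 2. The exact Poisson 95% intervals, which cover counting error only, were 0.762 to 1.25 FPKM and 1.81 to 2.55 FPKM. These 2 intervals did not overlap, while those of replicate 5 and sham replicate 1 (50 reads, 0.595 to 1.06 FPKM) did. Mx2 had 55 reads in IPF replicate 3 and 58 in sham replicate 1, with intervals of 0.606 to 1.05 and 0.739 to 1.26 FPKM, so their order is not resolved. The ratio of Mx1 to Mx2 was 0.643 in IPF replicate 5 and 1.21 to 2.00 in the other 4 IPF lungs, with 0.823 to 1.39 in the sham lungs.

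**Figure D2:**
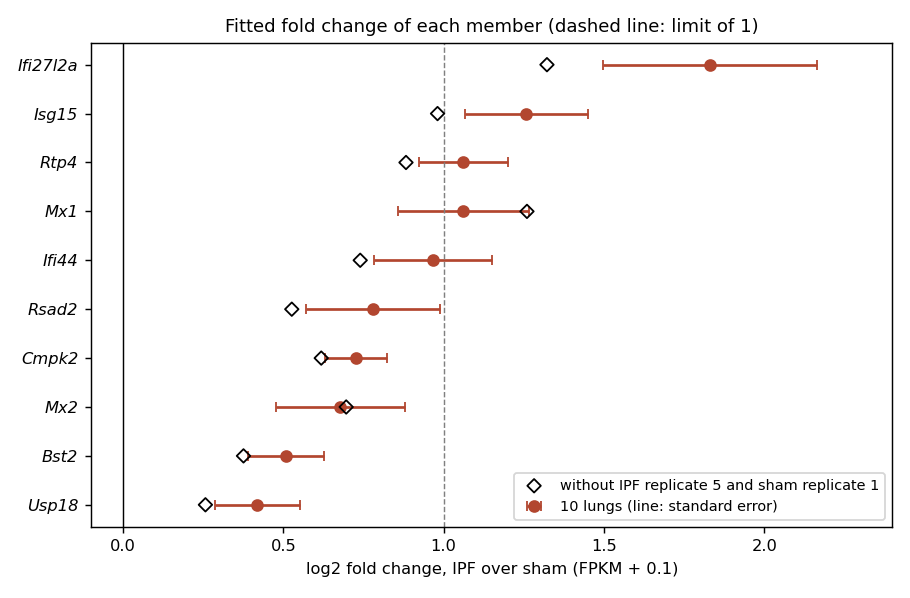
Fitted log2 fold change of each member, IPF over sham on log2(FPKM + 0.1); filled points with lines are all 10 lungs with the standard error, and open diamonds are the fit without IPF replicate 5 and sham replicate 1. All 20 values lie above 0, and the diamonds of Isg15 (0.98) and Rtp4 (0.88) fall under the limit of 1 while that of Mx1 moves up to 1.26.

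In sham lungs the order of the levels was Bst2, Ifi27l2a, Isg15, Rtp4, Cmpk2, Usp18, Ifi44, Rsad2, Mx2 and Mx1. The mean of Bst2 was 162 times that of Mx1. Bst2 stood above Ifi27l2a with no overlap of the sham lungs, as did Rtp4 above Cmpk2, Usp18 above Ifi44, Ifi44 above Rsad2 and Rsad2 above Mx2. Neighbours whose values overlapped were Ifi27l2a and Isg15, Isg15 and Rtp4, Cmpk2 and Usp18, and Mx2 and Mx1. In IPF lungs the order was the same except that Mx1 was above Mx2, which held in 4 of 5 lungs. There, Bst2 and Ifi27l2a, Ifi27l2a and Isg15, and Rtp4 and Cmpk2 were the neighbours whose lungs did not overlap.

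IPF replicate 5 and sham replicate 1 stood at the ends of the range for most members. Replicate 5 was the highest IPF lung for 8 of 10 members, and sham replicate 1 was the lowest sham lung for 8 and the highest for Mx1 and Mx2. The mean log2 difference of the members from the sham mean was 0.73, 0.96, 0.79, 0.82 and 1.34 in IPF replicates 1 to 5. In sham replicates 1 to 5 it was -0.24, 0.058, 0.14, 0.059 and -0.022. The lowest IPF lung was thus above the highest sham lung on this mean. Because the members were chosen on this contrast, that is a description only. Without both lungs, a choice made after seeing the data, 2 members passed both limits (Ifi27l2a and Mx1) in place of 4, where 0.792% of 20319 genes did. In those 8 lungs 9 members had no overlap, where 8.21% of all genes had none, since fewer lungs overlap less often.

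**Figure D3:**
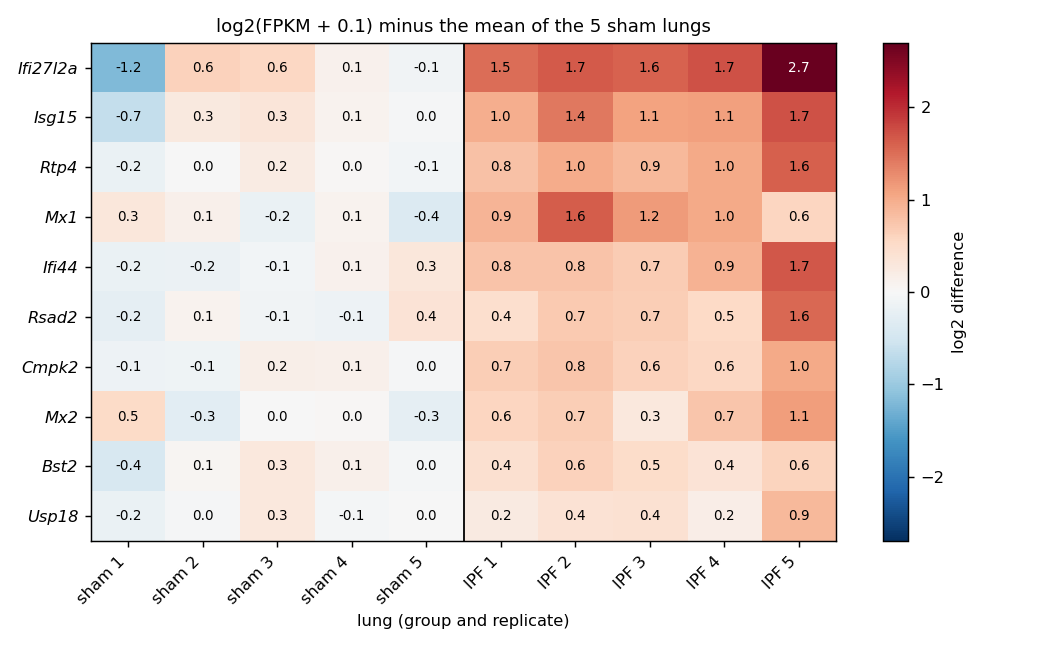
Log2(FPKM + 0.1) of each member minus the mean of the 5 sham lungs, 1 row per member and 1 column per lung, with red above and blue below the sham mean. All 50 IPF cells are above the sham mean, the column of IPF replicate 5 is darkest except in the rows of Mx1 and Bst2, and sham replicate 1 is lowest for Ifi27l2a, at -1.20.

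Within groups, Mx1 ran against the other members. Over the 10 deviations from the group means, the correlation of Mx1 with each other member ran from -0.73 to -0.047, with a median of -0.49 over 9 pairs. The 36 pairs among the other members had a median of 0.65. Without IPF replicate 5 and sham replicate 1 the medians were 0.26 and 0.30, so the contrast rests on those 2 lungs. The member closest to the mean of the others was Rtp4 (r = 0.94), and the farthest were Mx2 (0.13) and Mx1 (-0.55). All points of a correlation share the same libraries.

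The genes whose within-group pattern was most like the mean of the members, among 13433 genes with a mean of at least 1 FPKM, were Eif3f (r = 0.97), Ror2 (0.95), Cdkn2d (0.93), Ankrd37 (0.93) and Ifitm3 (0.93). Outside the pathway lists the fifth was Ctla2a (0.92). In the 8 lungs left without IPF replicate 5 and sham replicate 1, the values were 0.76, 0.66, 0.70, 0.58, 0.78 and 0.61. Of these 6 genes, 2 passed the adjusted p, in opposite directions. Ror2, a receptor for Wnt5a, was lower in IPF lungs (1.42 ± 0.215 against 2.24 ± 0.151 FPKM, limma adjusted p = 0.00760), with every IPF lung below every sham lung. Ifitm3, an antiviral membrane protein, was higher (526.4 ± 65.0 against 369.2 ± 41.5 FPKM, limma adjusted p = 0.0203, or 0.0508 without sham replicate 5).

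Upstream of the members, the interferon genes themselves had few or no reads. Of 21 interferon genes, 15 are listed at 0 in every lung, which by counting error alone allows up to 3 reads per lung. Trex1, a widely used DNA exonuclease on the type I list, is also listed at 0 in all 10 lungs, so a 0 in the table need not mean that a gene is not expressed. Ifnb1 had 1 read, in IPF replicate 5, Ifna5 had 1 read in IPF replicate 3 and Ifna7 had 1 read in sham replicate 1. Ifng had 18 reads in 6 lungs, Ifnk 18 reads in 5 and Ifnz 9 reads in 5. The Ifna genes are near-identical copies, so reads could be split among them. A difference in ligand mRNA was not detectable at this depth.

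Of 6 receptor, kinase and ISGF3 genes, 3 passed the adjusted p as higher, where 3.71% of all genes did, and 0 as lower. Irf9, the part of ISGF3 that reads DNA, rose from 11.5 ± 0.923 to 16.3 ± 2.62 FPKM (log2 fold change 0.49, limma adjusted p = 0.0189). Stat2 rose by less (0.32, limma adjusted p = 0.0287), as did Ifnar2 (0.22, limma adjusted p = 0.0311). With 1 lung left out, the call of Stat2 was lost in 6 of 10 fits (IPF replicate 2 or 4, sham replicate 1, 2, 3 or 5) and that of Ifnar2 in 6 of 10 (IPF replicate 1, 2 or 3, sham replicate 2, 4 or 5), with limma adjusted p up to 0.0748 and 0.0801, while Irf9 passed in all 10. Ifnar1 (0.043), Jak1 (0.020) and Tyk2 (0.0053) did not pass. Irf9 and Stat2 are themselves induced by interferon.

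Among 8 interferon regulatory factors, 3 passed the adjusted p as higher, where 3.71% of all genes did. Irf7, the factor that amplifies type I interferon production, measured 7.19, 7.48, 5.76, 7.48 and 14.4 FPKM in IPF and 4.13, 4.50, 6.07, 4.07 and 4.06 FPKM in sham lungs. IPF replicate 3 lay below sham replicate 3, and replicate 5 was the highest, as for 8 of 10 members (0.82, limma adjusted p = 0.0462). The call was lost in 7 of 10 fits with 1 lung left out, those without IPF replicate 1, 2 or 4 or sham replicate 1, 2, 4 or 5 (limma adjusted p up to 0.0991). Irf5, a factor of myeloid and B cells (0.67, limma adjusted p = 0.00656), and Irf1, which also answers type II interferon (0.36, limma adjusted p = 0.00344), did not have this shape, with replicate 5 the lowest IPF lung for Irf5.

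About as many genes of the wider type I response passed as did not. Of 58 tested genes on the list of other type I interferon-induced genes, 30 passed the adjusted p as higher, where 3.71% of all genes did, and 0 as lower, with a median log2 fold change of 0.40. Of 6 Ifit genes, which bind foreign RNA or aid its sensing, 1 passed (Ifit1, 0.86, limma adjusted p = 0.0141), while Ifit2 (0.12) and Ifit3 (0.27) did not. Of 7 Oas genes, 5 passed, with a median log2 fold change of 1.01 against 0.33 for the Ifit genes. Oas2, which makes the signal for RNase L, rose from 0.742 ± 0.0833 to 2.04 ± 0.909 FPKM (1.26, limma adjusted p = 0.00874), and Ifi204, a DNA sensor, rose with it (1.15, limma adjusted p = 0.0173). Oas3 had a log2 fold change of 1.14 but did not pass (limma adjusted p = 0.0783), with 1.62 FPKM in replicate 5 and 0.382 to 0.590 FPKM in the other IPF lungs. Ifi204 has near-identical neighbours, so its reads may be shared.

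Most genes led by type II interferon, from a separate list, passed as higher. Of 21, 17 passed the adjusted p as higher, where 3.71% of all genes did, and 0 as lower. Their median log2 fold change was 0.91. Gbp6, a guanylate-binding protein, measured 2.18, 2.25, 2.07, 2.03 and 2.19 FPKM in IPF and 0.550, 0.646, 0.586, 0.514 and 0.837 FPKM in sham lungs (1.64, limma adjusted p = 7.57e-05). The 5 IPF lungs were nearly level. Socs1, an inhibitor of JAK signalling (1.26, limma adjusted p = 0.0142), and Tgtp1, a GTPase with a near-identical copy (1.21, limma adjusted p = 0.00695), followed in size, and replicate 5 was the lowest IPF lung for Socs1. These lists were written with results of these data known, and neither the difference between the lists nor that between replicate 5 and the rest was tested.

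The excess of replicate 5 over the mean of the other 4 IPF lungs had a median log2 value of 0.57 over the members, 0.33 over the other type I genes, 0.054 over the type II genes and -0.010 over all tested genes. It was 0.79 for 7 Oas genes and 0.81 for 6 Ifit genes, and among type II-led families 0.21 for 7 immunity-related GTPases and 0.047 for 10 guanylate-binding proteins. Replicate 5 was the highest IPF lung for 6 of the 7 GTPases and 3 of the 10 guanylate-binding proteins, so the type II genes were not alike in this. Replicate 5 was the highest IPF lung for 80.0% of members, 81.0% of the other type I genes, 42.9% of the type II genes and 24.3% of all genes.

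**Figure D4:**
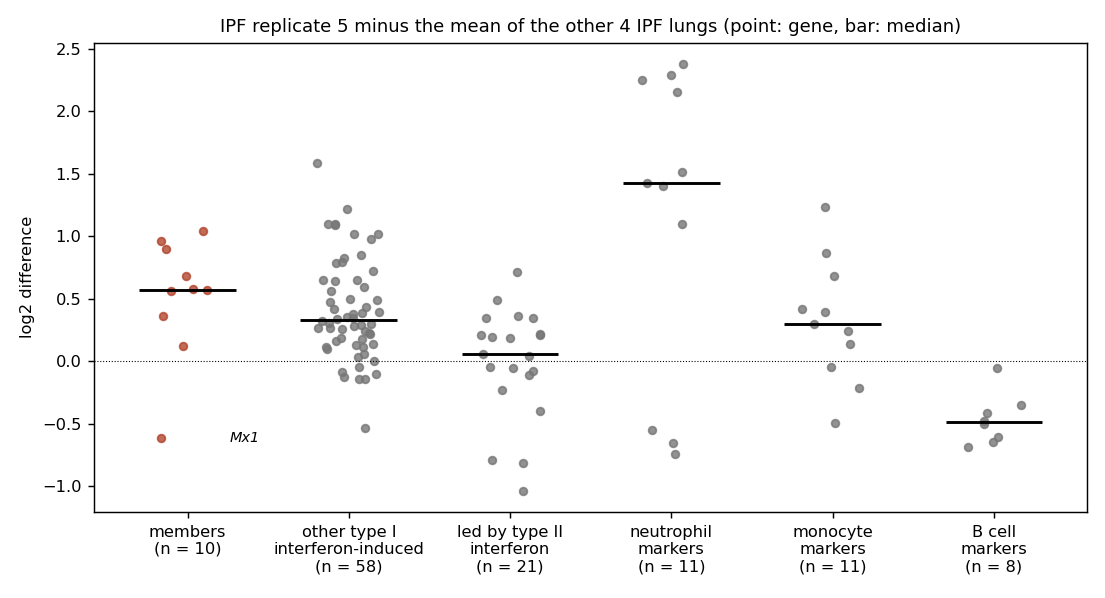
Log2(FPKM + 0.1) in IPF replicate 5 minus the mean of the other 4 IPF lungs, 1 point per tested gene in 6 lists, with a bar at the median; the horizontal place within a list is arbitrary. The members (median 0.57) and the other type I genes (0.33) lie mostly above 0 with Mx1 at -0.61, the type II genes are centred near 0 (0.054), and neutrophil markers are centred at 1.42.

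Markers of several leukocytes were measured beside the members. The summed level of 11 neutrophil markers was 58.9 to 313.3 FPKM in IPF and 18.5 to 90.7 FPKM in sham lungs. The highest was replicate 5, followed at 91.7 FPKM, and the lowest was sham replicate 1, while 0 of 11 markers passed the test. The sum is mostly that of S100a9 and S100a8, calcium-binding proteins of neutrophils, at 185.5 and 78.9 FPKM in replicate 5 and at most 41.2 and 20.4 FPKM in the other IPF lungs. Replicate 5 was the highest IPF lung for 8 of the 11 markers, while the granule proteins Ngp (-0.66), Camp (-0.74) and Ltf (-0.55) were lower there than the mean of the other 4 on the log2 scale. The sum of 11 monocyte markers was 68.2 to 86.5 against 34.8 to 48.5 FPKM, with 6 passing as higher (all genes: 3.71%). Those of 8 B cell markers (39.6 to 58.6 against 20.5 to 33.6 FPKM, 7 passing) and 8 natural killer cell markers (12.8 to 20.2 against 4.59 to 10.2 FPKM, 5 passing) did not overlap either. Replicate 5, where most members peaked, had the lowest B cell sum of the IPF lungs, with a median log2 difference of -0.49 from the other 4. For 8 plasmacytoid dendritic cell markers, cells that make much type I interferon and carry Bst2, 1 passed (Spib, also a B cell gene, lost without IPF replicate 1, 2, 3 or 4 or sham replicate 1), and their defining Siglech was 0.384 to 1.42 in IPF and 0.271 to 0.444 FPKM in sham lungs. The T cell list had 1 of 9 passing (Cd4), and the alveolar macrophage and ciliated cell lists had 0 of 9 and 0 of 10. The sum of 8 endothelial markers was 1247 to 1395 FPKM in IPF, highest in replicate 5, and 1071 to 1142 FPKM in sham lungs, with 1 marker passing as higher (Cldn5, a tight junction protein, 0.56, limma adjusted p = 0.0107). The part of cell makeup in the members' values was not tested.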

How the data were processed

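mRNA of 10 whole mouse lungs was measured, 5 IPF and 5 sham, grouped by the sample titles. The labels number the lungs without naming animals, so p-values measure only the spread between these samples. The authors used Fastp for trimming, HISAT2 for alignment and StringTie for quantification of paired reads, and the deposited table gives an FPKM value per gene and lung beside gene length, position and type. The methods name GRCm39, but the deposited positions are those of GRCm38, chromosome 1 reaching 195323493. The methods name the KAPA mRNA HyperPrep kit and the labels NEBNext Ultra. FPKM times gene length gave whole reads for 100% of values (within 0.01 reads), and totals of 15483046 to 19026843 per lung, which set the precision of low genes. No raw reads were used here.

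limma 3.58.1 (R 4.3.3, empirical Bayes with a trend) was fitted to genes with a mean of at least 0.1 FPKM, on log2(FPKM + 0.1), IPF against sham without covariates, and adjusted by the Benjamini-Hochberg method over all 20448 genes tested. Such a fold change understates that of low genes. The study's own test works on counts and was not repeated. The members and all gene lists were chosen with earlier results of these data known. Named genes are the members, the 3 largest fold changes of each pathway list, the receptor, ISGF3 and ISG15 conjugation genes, Irf7, and the genes most like the members, except 1 gene that is not reported here. Ifit1, Ifit2, Ifit3, Trex1, S100a8, S100a9, Ngp, Camp, Ltf, Siglech, Sftpc and the families were chosen after their values were seen. Spib, Cd4 and Cldn5 are named as the only passing genes of their cell type lists, and Xist and the Y-linked genes because they divide the groups. Alternatives were other pseudocounts, filters, scalings, a replicate block, no variance trend, limma voom on recovered reads, and leaving out lungs. Lungs with the same replicate number did not visibly deviate together (r from -0.020 to 0.096). Such values cannot exclude a weak pairing, and the labels name none. No 2 lungs were duplicates, with a chi-square per degree of freedom of at least 4.78 between replicates. Tables and plots were made with Python 3.11.15, pandas 2.3.3, numpy 2.4.6 and matplotlib 3.10.9.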

Additional observations from a re-analysis of the deposited data

Results flagged for a closer look

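In 4 of 20 sets of 5 lungs (10 members in either group), 1 lung lay farther from its neighbours than Dixon's 95% limit of 0.71 for the gap over the range. Chance gives about 1 in 20 for genes picked without regard to their values, but the members were chosen with their spread among these lungs known, so the 4 are a description and not a test. All 4 were IPF replicate 5: Ifi27l2a at 102.4 FPKM, next 53.2 FPKM (gap over range 0.867), Rsad2 at 3.65 FPKM, next 1.98 FPKM (0.831), Ifi44 at 6.94 FPKM, next 4.06 FPKM (0.814), and Rtp4 at 33.8 FPKM, next 22.5 FPKM (0.776). These values come from 1 library, so they are not separate events. The neutrophil marker sum of the same lung was 313.3 FPKM against at most 91.7 FPKM in the other IPF lungs, mostly S100a9 and S100a8. The sum of the 15 circadian clock genes was also highest among IPF lungs there, at 171.6 FPKM, next 113.1 FPKM. Their median log2 excess over the other 4 IPF lungs was 0.80. The part of either in the 4 values was not tested.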

How the results depend on the processing

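Every member kept its direction in all 199 member fits, which is no test of the direction. The filters, the replicate block and the variance setting leave a fold change as it is by construction. Leaving out lungs cannot reverse the 8 members whose groups did not overlap. In 185 of the 199 fits the side of the adjusted p of 0.05 was kept as well. Of the rest, 7 lost the call, all for Bst2, and 7 gained it, 5 for Rsad2 and 2 for Mx2. Mx2 has no value at a mean of at least 1 FPKM. Over all genes, 233 passed both limits, against 74 with a pseudocount of 1, 154 with a mean of at least 1 FPKM, and 171 to 299 when 1 lung was left out. The median log2 fold change of the members was 0.87, against 0.62 with a pseudocount of 1, which shrinks low genes by construction, and 0.72 to 0.94 with 1 lung left out. Members passing both limits numbered 4, against 3 with a pseudocount of 1 (Mx1 lost), 3 (without IPF replicate 5) to 5 (without IPF replicate 1 or 3) with 1 lung left out and 2 without both IPF replicate 5 and sham replicate 1, an alternative chosen after seeing the data. With 1 lung left out, 6 to 8 members passed the adjusted p alone, as did 22 to 32 other type I genes and 16 to 17 type II genes. With the replicate block, 4 members passed both limits and 8 the adjusted p, with 202 genes in all. That block rests on replicate numbers, and the labels do not say that they pair the lungs. No scaling moved the median of all genes by over 0.1. Reads limit Mx1, Mx2 and the ligands, with as few as 27 reads for a member in 1 lung.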
